A study of Homo sapiens with 6 samples.

Results

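Wnt signalling genes were followed across 6 RNA-seq libraries of Huh7, an established human hepatocellular carcinoma line: 3 from cells overexpressing HK1, the gene of hexokinase 1, and 3 from control cells. The set was chosen by name, with earlier results of these data known, and held 43 of the 79172 gene names in the count table. It comprised Wnt ligands and the proteins that secrete them, receptors, antagonists, regulators of receptor turnover, the beta-catenin destruction complex, beta-catenin itself, T-cell factor (TCF) transcription factors and feedback targets. All 43 names were found. A filter on low counts left 31 of them among the 16734 genes tested, and 12 were too low to test, of which WNT3, FZD8 and APCDD1 had no count in any library.

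The sources used here do not give how HK1 was introduced, what the control cells received, whether 1 clone or a pool of cells was used, or whether replicates were separate cultures. If they were not, p-values measure only a technical spread. HK1 had 491, 511 and 527 CPM in HK1-overexpressing libraries, against 0.655, 0.882 and 0.790 CPM in control libraries, so the libraries matched their labels. Library totals were 19607663 to 20823072 counts in HK1-overexpressing cells and 16771835 to 20071846 counts in control cells. Levels are CPM, the count of a gene scaled to the size of its library, with TMM factors. A count of 3, the limit that a count of 0 allows, was worth 0.142 to 0.182 CPM in these libraries, for counting error only. The hepatocyte identity of the line was visible in ALB (albumin), which had 3501, 3388 and 3376 CPM in HK1-overexpressing libraries, against 4834, 5049 and 4923 CPM in control libraries. HNF4A, a hepatocyte transcription factor, had 156, 153 and 161 CPM in HK1-overexpressing libraries, against 160.5, 151 and 155 CPM in control libraries. Of 4 endothelial markers, CDH5 and KDR were at 0 in all libraries and VWF had at most 3 counts in a library. PECAM1, the fourth, had 4.392, 5.398 and 5.411 CPM in HK1-overexpressing libraries, against 4.03, 5.29 and 6.20 CPM in control libraries, and was not called (edgeR adjusted p = 0.964).

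In the canonical pathway, a Wnt protein made lipid-bearing by PORCN and carried out of the cell by WLS binds a Frizzled receptor and the co-receptor LRP5 or LRP6. Without that signal, a complex of AXIN, APC and GSK3 marks beta-catenin for destruction. With it, beta-catenin accumulates, enters the nucleus and acts with TCF factors on target genes. Several of these, such as AXIN2, RNF43, ZNRF3, NKD1 and NOTUM, feed back to limit the signal. In the liver the pathway sets the gene programme of hepatocytes around the central vein, and activating changes in beta-catenin are common in hepatocellular carcinoma. Beta-catenin is controlled mainly through its protein stability, which RNA-seq does not measure.

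DKK1 and DKK3 were the 2 Wnt pathway genes that rose with HK1 overexpression. Both belong to the Dickkopf family of secreted proteins. DKK1 blocks Wnt signalling by binding LRP5 and LRP6 and is itself a known target of beta-catenin, whereas DKK3 is a divergent member. The promoter of DKK1 is shown because this gene changed most among the 31, and that of SP5, a transcription factor gene and direct target of beta-catenin, because it carries the same TCF core letters and was not called. Each window runs from 250 bases before to 50 bases after the start of the gene in RefSeq on GRCh38.p14, 5′ to 3′ along the plus strand, which is the coding strand of both genes. The DKK1 window is chr10:52314031-52314330 and the SP5 window is chr2:170715087-170715386. Capitals mark matches of 3 motifs searched on both strands. The first is a TCF core with the letters CTTTGAA, which is printed as TTCAAAG where it lies on the reverse strand. The second is a variant of that core with the letters CTTTGAT. The third is the TATA box with the letters TATAAA. Other spellings of the TCF core, such as CTTTGTT, were not searched, so any present stay in lower case and are not counted.

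DKK1: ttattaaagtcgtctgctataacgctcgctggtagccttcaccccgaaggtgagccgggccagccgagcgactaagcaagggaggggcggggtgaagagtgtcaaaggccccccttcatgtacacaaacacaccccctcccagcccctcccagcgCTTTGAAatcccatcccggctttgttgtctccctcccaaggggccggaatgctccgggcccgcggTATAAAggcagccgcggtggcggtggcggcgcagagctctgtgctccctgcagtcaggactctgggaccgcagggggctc
SP5: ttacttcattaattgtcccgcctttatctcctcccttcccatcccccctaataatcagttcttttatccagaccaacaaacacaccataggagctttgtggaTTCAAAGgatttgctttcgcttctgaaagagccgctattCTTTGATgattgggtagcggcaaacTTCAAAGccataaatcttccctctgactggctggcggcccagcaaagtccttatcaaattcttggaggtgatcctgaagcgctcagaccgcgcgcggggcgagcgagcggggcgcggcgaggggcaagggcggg

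The DKK1 window holds 1 match of the first core, beginning at position -95 from the start, and a TATA box at -30. The SP5 window holds 3 of the searched cores. The first kind lies on the reverse strand at -148 and -84, and the variant lies at -109. The motifs do not overlap. RefSeq windows were found for 27 of the 43 genes, 37 windows in all. A searched TCF core was in 2 of them, those of DKK1 and SP5. Over 35116 windows of the same length in that table, 6.86% held at least 1 core, 4.43% the first kind and 2.62% the variant. The TATA box letters were in 4 of the 37 windows, those of DKK1, FZD8, TCF7 and WNT5B, and in 11.5% of all windows. A match of letters is a description of the window only.

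Of the 31 tested genes, 2 rose and 0 fell at an edgeR adjusted p of 0.05, and 29 were not called. The 2 were 6.45% of those tested, while 3.87% of all tested genes were called higher and 4.15% lower. At an unadjusted p under 0.05, edgeR gave the same number higher (6.45%, against 10.7% of all tested genes) and 3 lower, FZD5, AXIN1 and TCF7 (9.68%, against 11.2%). DESeq2 and limma-voom also called 2 higher and 0 lower. Of all 16734 tested genes, DESeq2 called 478 higher and 579 lower, and limma-voom called 582 higher and 634 lower. Without control library 1 the count was 4 higher, with LRP6 and APC added, while 1172 of all 17180 tested genes were called higher. Without control library 2 it was 1 lower, FZD5, while 983 of all 17170 tested genes were called lower. With all 6 libraries, 648 of all 16734 tested genes were called higher and 694 lower. The log2 fold change, HK1-overexpressing over control, was positive for 18 of the 31 and negative for 13. Its median was 0.026, against 0.0063 over all tested genes, and its range ran from -0.41 for NOTUM to 0.87 for DKK1. Libraries of the 2 groups did not overlap for 6 genes, with DKK1, DKK3, WLS and RNF43 above control and PORCN and FZD5 below it. Over all tested genes, 27.8% did not overlap. Of the 29 uncalled genes, 26 had a 95% interval of the fold change inside 1.5-fold in both directions. The intervals of FZD2, KREMEN2 and NOTUM reached beyond it.

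**Figure D1:**
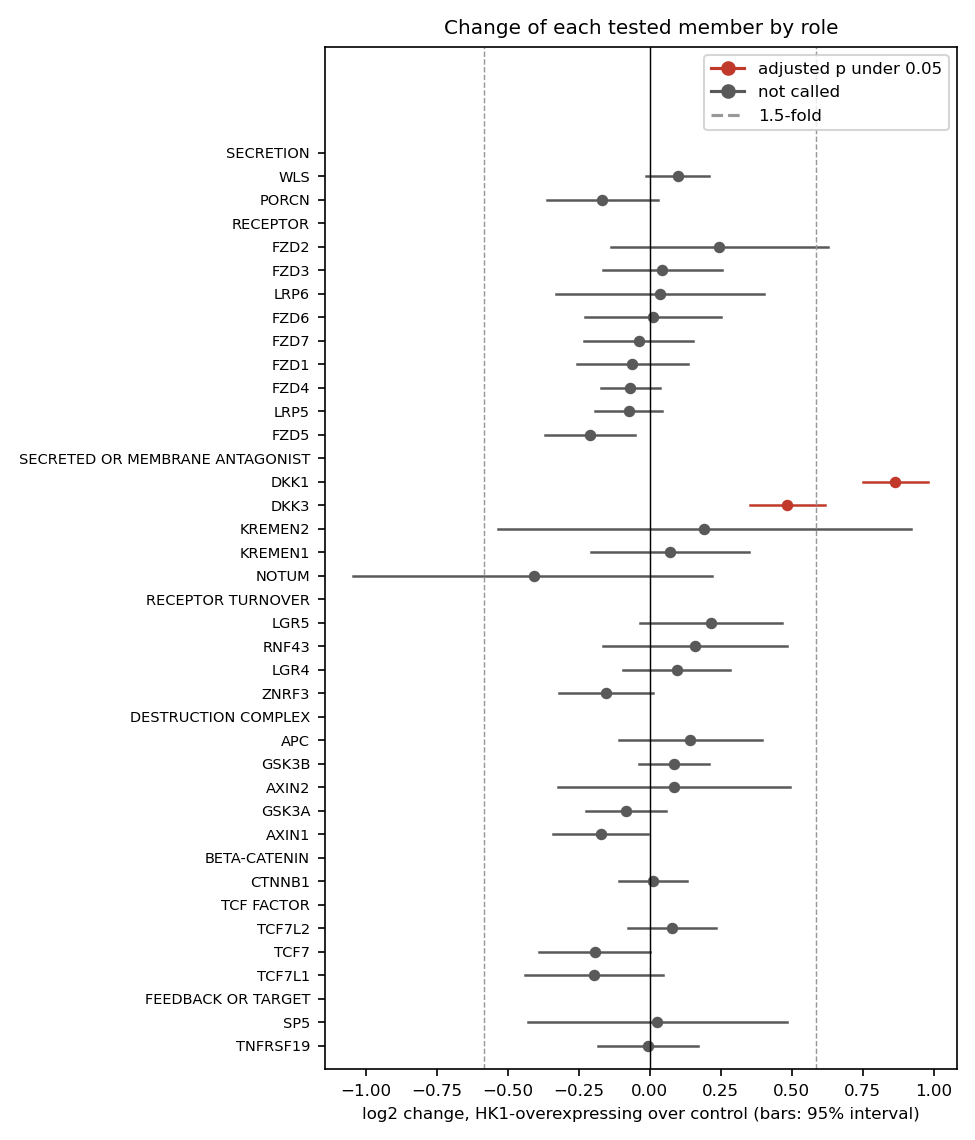
Log2 fold change of each of the 31 tested Wnt pathway genes, HK1-overexpressing over control, by role, with 95% intervals as bars and dashed lines at 1.5-fold. DKK1 at 0.87 and DKK3 at 0.48 are the 2 points with an adjusted p under 0.05, and the other points lie between -0.41 and 0.24.

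DKK1 had 109, 107 and 113 CPM in HK1-overexpressing libraries, against 62.0, 59.2 and 59.3 CPM in control libraries. Every HK1-overexpressing library lay above every control library, and the spread within each group was small beside the gap. The means were 109.7 ± 2.73 CPM in HK1-overexpressing cells and 60.2 ± 1.59 CPM in control cells (SD, n = 3 each). This was a 1.82-fold difference (log2 fold change 0.87, SE 0.0540, 95% interval 0.75 to 0.98, edgeR adjusted p = 3.52e-07). Among the 648 genes called higher, DKK1 ranked 3 by p and 107 by log2 fold change. DKK1 lies at chr10:52314281-52318042 (hg38, plus strand), and 17.3% of its exon bases are shared with PRKG1-AS1, an antisense gene. That neighbour had 7, 12 and 8 counts in HK1-overexpressing libraries, against 4, 2 and 1 in control libraries, so it was low beside the 975 to 2373 counts of DKK1.

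DKK3 had 57.2, 59.4 and 56.3 CPM in HK1-overexpressing libraries, against 42.6, 39.0 and 42.1 CPM in control libraries. The groups were again apart in all 6 libraries, with means of 57.7 ± 1.56 CPM in HK1-overexpressing cells and 41.2 ± 1.97 CPM in control cells (SD, n = 3 each). The difference was 1.40-fold (log2 fold change 0.48, SE 0.0618, 95% interval 0.35 to 0.62, edgeR adjusted p = 0.000227), and it was not called when tested against a fold of 1.5 (edgeR adjusted p = 1). DKK3 lies at chr11:11956207-12009769 (hg38, minus strand). Of its exon bases, 47.5% are shared with USP47, a ubiquitin protease gene on the other strand, and the counting did not use strand. USP47 had 62.0, 66.1 and 62.4 CPM in HK1-overexpressing libraries, against 65.3, 53.3 and 58.5 CPM in control libraries, and it was not called (log2 fold change 0.10, edgeR adjusted p = 0.444).

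Per kilobase of merged exon, DKK1 made up most of the summed Dickkopf level. That share depends on the lengths used, 2221 bases for DKK1 and 11958 for DKK3, of which 47.5% are shared with USP47. In CPM the gap was smaller, with means of 109.7 for DKK1 and 57.7 for DKK3 in HK1-overexpressing cells. In control cells these means were 60.2 and 41.2 CPM. The summed level of DKK1 to DKK4 was 54.2 ± 1.11 CPM per kb in HK1-overexpressing cells and 30.6 ± 0.804 in control cells (SD, n = 3 each). DKK1 supplied 91.1 ± 0.411% of that sum in HK1-overexpressing cells and 88.7 ± 0.284% in control cells. DKK3 supplied 8.90 ± 0.411% in HK1-overexpressing cells and 11.3 ± 0.394% in control cells. DKK4, an antagonist also known as a beta-catenin target in the liver, had 1 count in all, in control library 2.

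**Figure D2:**
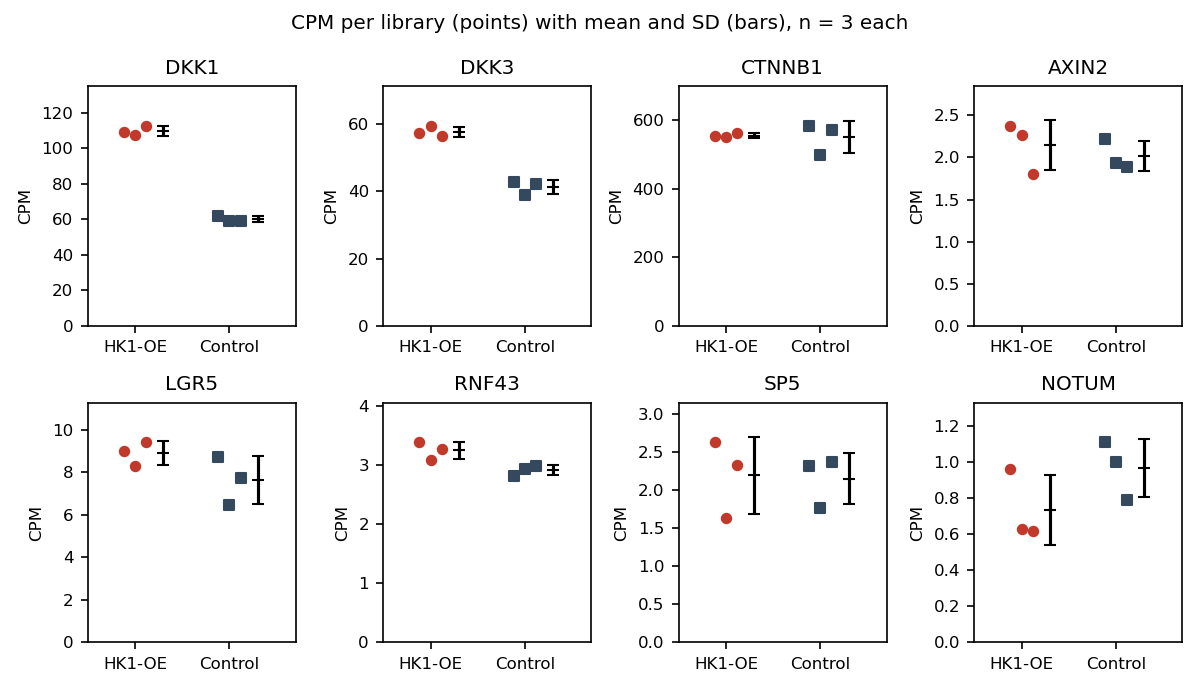
CPM in each library (points) for 8 Wnt pathway genes, with mean and SD as bars (n = 3 each) and every axis starting at 0. DKK1 and DKK3 are apart by wide gaps, RNF43 by a narrow one, and the groups overlap for CTNNB1, AXIN2, LGR5, SP5 and NOTUM.

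The other antagonists of the set were low. KREMEN1 and KREMEN2, receptors through which DKK1 removes LRP6 from the cell surface, had log2 fold changes of 0.071 and 0.19, and neither was called (edgeR adjusted p = 0.801 and 0.796). KREMEN1 ranged from 4.87 to 5.20 CPM in HK1-overexpressing libraries and from 4.13 to 5.19 CPM in control libraries. NOTUM, a secreted enzyme that strips the lipid from Wnt proteins, had 0.959, 0.627 and 0.617 CPM in HK1-overexpressing libraries, against 1.11, 0.999 and 0.790 CPM in control libraries. Its groups overlapped and its interval was wide (log2 fold change -0.41, 95% interval -1.04 to 0.22, edgeR adjusted p = 0.460). SFRP5, a secreted Frizzled-like protein that captures Wnt, had 2, 0 and 1 counts in HK1-overexpressing libraries, against 0, 0 and 0 counts in control libraries. APCDD1, a membrane antagonist, was at 0 in all libraries.

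Wnt ligands of the set were near the detection limit in these libraries. WNT11 had 3, 4 and 3 counts in HK1-overexpressing libraries, against 3, 4 and 0 counts in control libraries, and WNT5A had 1, 2 and 0 counts in HK1-overexpressing libraries, against 0, 2 and 2 counts in control libraries. WNT5B and WNT7B each had at most 2 counts in a library, and WNT3 had none. These counts were at or near the limit that a count of 0 allows, so no difference was detectable at this depth. All 19 human WNT genes together had 66, 88 and 88 counts in HK1-overexpressing libraries, against 71, 71 and 59 in control libraries. Scaled, that was 3.33, 4.24 and 4.18 CPM in HK1-overexpressing libraries, against 3.58, 4.17 and 3.59 CPM in control libraries, which overlap. Of the 19, 7 were at 0 everywhere and 2 passed the filter, WNT2B (log2 fold change 0.38, edgeR adjusted p = 0.504) and WNT10B (-0.10, edgeR adjusted p = 0.831). The 4 R-spondin genes, whose products boost Wnt signalling through LGR receptors, had 1 count among them in all.

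The secretion machinery was well expressed. WLS had 89.8, 88.3 and 89.8 CPM in HK1-overexpressing libraries, against 84.2, 81.5 and 84.5 CPM in control libraries. Its HK1-overexpressing libraries were all slightly above control, with a small difference that was not called (log2 fold change 0.10, 95% interval -0.012 to 0.21, edgeR adjusted p = 0.291). PORCN had 9.64, 10.1 and 10.2 CPM in HK1-overexpressing libraries, against 10.4, 11.8 and 11.5 CPM in control libraries. Here the HK1-overexpressing libraries were all slightly below control, again uncalled (log2 fold change -0.17, 95% interval -0.36 to 0.028, edgeR adjusted p = 0.313).

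Among receptors, LRP5 had the highest level per kb of merged exon of all 43 genes. It stood at 56.3 ± 2.13 CPM per kb in HK1-overexpressing cells and 59.3 ± 3.98 in control cells (SD, n = 3 each). This rank depends on the merged exon length, 6182 bases for LRP5 and 11759 for CTNNB1, the gene of beta-catenin. In CPM, CTNNB1 was higher, with means of 556 in HK1-overexpressing cells and 551 in control cells. LRP5 had 337, 345 and 363 CPM in HK1-overexpressing libraries, against 389, 371 and 340.1 CPM in control libraries. The groups overlapped (log2 fold change -0.074, 95% interval -0.19 to 0.044, edgeR adjusted p = 0.480). LRP5 supplied 92.1 ± 0.289% of the summed LRP5 and LRP6 level in HK1-overexpressing cells and 92.7 ± 1.40% in control cells. LRP6 had 49.8, 49.9 and 49.6 CPM in HK1-overexpressing libraries, against 60.2, 37.7 and 47 CPM in control libraries. Its HK1-overexpressing libraries agreed closely with each other while control libraries 1 and 2 lay on either side of them, and it was not called (log2 fold change 0.037, 95% interval -0.33 to 0.40, edgeR adjusted p = 0.921).

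Frizzled genes were led by FZD4 and FZD5 in every library. FZD4 had 188, 183 and 183 CPM in HK1-overexpressing libraries, against 202, 187 and 193 CPM in control libraries, and it was not called (log2 fold change -0.068, 95% interval -0.17 to 0.036, edgeR adjusted p = 0.460). FZD5 had 129, 131 and 132 CPM in HK1-overexpressing libraries, against 172, 137 and 144 CPM in control libraries. All HK1-overexpressing libraries were below all control libraries, among which library 1 stood highest, and the difference missed the threshold (log2 fold change -0.21, 95% interval -0.37 to -0.05, edgeR adjusted p = 0.107). It was called without control library 2 (log2 fold change -0.27, edgeR adjusted p = 0.00913) and with no filter on low counts (log2 fold change -0.20, edgeR adjusted p = 0.0213), as the only Wnt pathway gene called lower in those settings. FZD1, FZD2, FZD3, FZD6 and FZD7 averaged between 2.55 and 16.6 CPM in either group, and their log2 fold changes ran from -0.061 to 0.24 with none called. FZD8 had no count.

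The Frizzled mixture was similar in all 6 libraries. Summed over FZD1 to FZD10, the level was 55.1 ± 1.07 CPM per kb in HK1-overexpressing cells and 59.3 ± 4.74 in control cells (SD, n = 3 each). FZD4 supplied 45.4 ± 0.234% in HK1-overexpressing cells and 44.4 ± 1.85% in control cells. FZD5 supplied 33.7 ± 0.936% in HK1-overexpressing cells and 36.1 ± 1.65% in control cells, without overlap between the groups. FZD6 and FZD7 followed, each at 5 to 8% of the sum in every library. The share of FZD2 did not overlap either, at 1.31 to 1.66% in HK1-overexpressing libraries and 1.05 to 1.29% in control libraries. In level, 27.8% of all tested genes did not overlap.

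**Figure D3:**
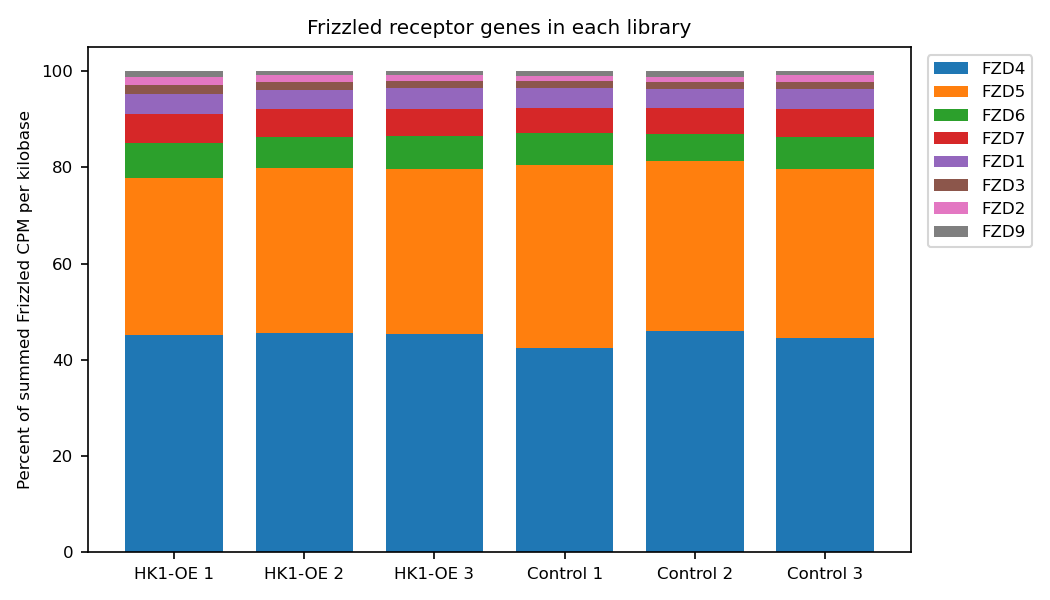
Share of each Frizzled gene in the summed Frizzled level (CPM per kb) of each library. FZD4 and FZD5 fill most of every bar, and the share of FZD5 is 33.7% on average in HK1-overexpressing cells and 36.1% in control cells.

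Regulators of receptor turnover set how many Frizzled receptors stay at the cell surface. ZNRF3 and RNF43 are ubiquitin ligases that remove them, and LGR4 and LGR5 are R-spondin receptors that hold those ligases back. LGR4 was the highest of the role, with 198, 199 and 196 CPM in HK1-overexpressing libraries, against 208, 157 and 191 CPM in control libraries. The groups overlapped, and control library 2 lay below the other 5 libraries and control library 1 above them (log2 fold change 0.094, 95% interval -0.10 to 0.28, edgeR adjusted p = 0.581). LGR5, also a stem cell marker and a beta-catenin target, had 8.99, 8.29 and 9.40 CPM in HK1-overexpressing libraries, against 8.71, 6.46 and 7.72 CPM in control libraries. Most HK1-overexpressing libraries were above most control libraries, but they overlapped and LGR5 was not called (log2 fold change 0.21, 95% interval -0.036 to 0.46, edgeR adjusted p = 0.313). ZNRF3 had 24.4, 26.2 and 27.6 CPM in HK1-overexpressing libraries, against 31.3, 27.0 and 28.6 CPM in control libraries. Its groups overlapped narrowly, with HK1-overexpressing cells lower on average (log2 fold change -0.15, 95% interval -0.32 to 0.013, edgeR adjusted p = 0.271). RNF43 had 3.38, 3.08 and 3.28 CPM in HK1-overexpressing libraries, against 2.82, 2.94 and 2.98 CPM in control libraries. The groups were apart by a narrow margin at a low level and the gene was not called (log2 fold change 0.16, 95% interval -0.17 to 0.48, edgeR adjusted p = 0.599). Of the exon bases of RNF43, 69.0% are shared with other genes, mainly TSPOAP1-AS1 and ENSG00000285897, so fragments from it may be missing from its count.

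Beta-catenin mRNA differed between the groups by less than the spread of the control libraries. CTNNB1, its gene, at chr3:41194741-41260096 (hg38), had 555, 550.2 and 563 CPM in HK1-overexpressing libraries, against 584, 499 and 571 CPM in control libraries. The HK1-overexpressing libraries fell between the lowest and highest control libraries. The 95% interval of the log2 fold change ran from -0.11 to 0.13 (log2 fold change 0.011, edgeR adjusted p = 0.932). Per kilobase it was among the 3 highest genes of the set, at 47.3 ± 0.534 CPM per kb in HK1-overexpressing cells and 46.9 ± 3.88 in control cells (SD, n = 3 each). DKK1, at 49.4 ± 1.23 CPM per kb in HK1-overexpressing cells and 27.1 ± 0.714 in control cells, was just above it in HK1-overexpressing cells and well below it in control cells. In order of level per kb of merged exon, DKK1 stood 2 of 43 in HK1-overexpressing cells and 4 in control cells. LRP5, CTNNB1 and LGR4 preceded it in control cells. This order depends on the merged exon lengths, and in CPM CTNNB1 was the highest gene of the set in both groups. LGR4 and DKK1 in control cells did not differ beyond the spread of LGR4, at 29.1 ± 4.08 and 27.1 ± 0.714 CPM per kb, nor did DKK1 and FZD4 differ beyond their spread there.

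**Figure D4:**
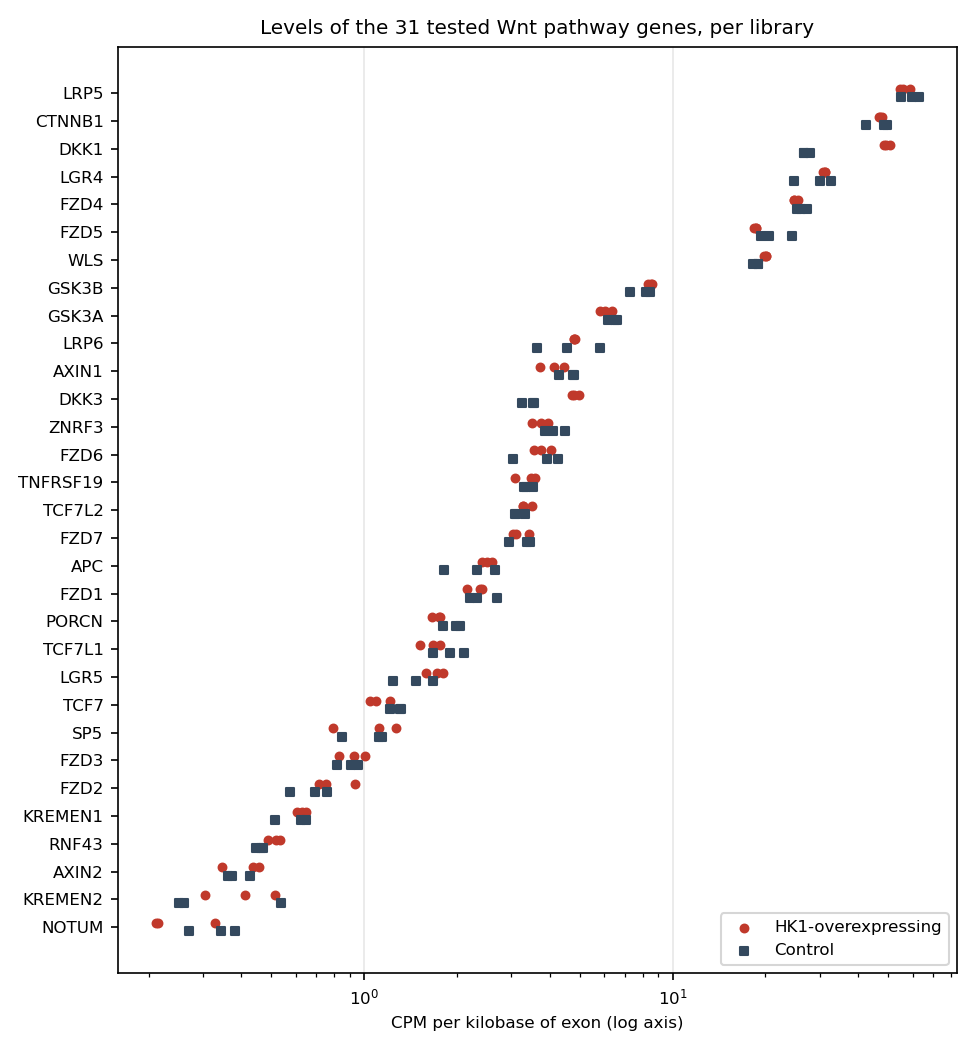
Level of the 31 tested Wnt pathway genes in each library, as CPM per kb of exon on a log axis, ordered by mean level. LRP5, CTNNB1 and DKK1 head the list on this scale, which depends on the merged exon length. The groups stand apart for 6 genes, DKK1, DKK3, WLS, RNF43, PORCN and FZD5, and for 27.8% of all tested genes. NOTUM is lowest.

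None of the 5 genes of the destruction complex was called in either direction, although AXIN1 had an unadjusted edgeR p of 0.0440. GSK3B, the kinase with the highest level of the complex, had 153, 149 and 152 CPM in HK1-overexpressing libraries, against 151, 130.5 and 146 CPM in control libraries (log2 fold change 0.085, 95% interval -0.039 to 0.21, edgeR adjusted p = 0.432). GSK3A, its paralog, had a log2 fold change of -0.084. AXIN1, the scaffold, ranged from 28.1 to 33.4 CPM in HK1-overexpressing libraries and from 32.2 to 36.2 CPM in control libraries (log2 fold change -0.17, 95% interval -0.34 to -0.0054, edgeR adjusted p = 0.212). APC ranged from 33.5 to 35.9 CPM in HK1-overexpressing libraries and from 25.2 to 36.8 CPM in control libraries (log2 fold change 0.14, 95% interval -0.11 to 0.39, edgeR adjusted p = 0.522). Both LRP6 and APC had their widest spread in the control group, and both were called higher without control library 1 (log2 fold change 0.24 and 0.28, edgeR adjusted p = 0.0482 and 0.0404).

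AXIN2, a scaffold like AXIN1 and a widely used transcriptional readout of beta-catenin, had 2.37, 2.27 and 1.80 CPM in HK1-overexpressing libraries, against 2.22, 1.94 and 1.88 CPM in control libraries. It was expressed at a low level in every library and the groups overlapped. The interval allows a change of either sign and lies inside 1.5-fold in both directions, reaching further up than down (log2 fold change 0.085, 95% interval -0.32 to 0.49, edgeR adjusted p = 0.848). AXIN1 supplied 90.8 ± 1.60% of the summed AXIN level per kb in HK1-overexpressing cells and 92.3 ± 0.454% in control cells. Of the AXIN2 exon bases, 25.3% are shared with ENSG00000266076, which had no count.

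TCF factors carry beta-catenin to DNA. TCF7L2 was the highest of them per kilobase, supplying 54.5 ± 2.33% of their summed level in HK1-overexpressing cells and 49.7 ± 1.07% in control cells. These shares did not overlap between the groups, and neither did the levels of 27.8% of all tested genes. In CPM, TCF7L2 had 23.5, 22.1 and 22.1 CPM in HK1-overexpressing libraries, against 21.01, 20.8 and 22.4 CPM in control libraries, and it was not called (log2 fold change 0.078, 95% interval -0.079 to 0.23, edgeR adjusted p = 0.591). TCF7 had 11.1, 12.2 and 10.5 CPM in HK1-overexpressing libraries, against 13.3, 13.2 and 12.2 CPM in control libraries. HK1-overexpressing cells were lower on average, with libraries that overlapped at 12.2 CPM (log2 fold change -0.19, 95% interval -0.39 to -0.00043, edgeR adjusted p = 0.227). TCF7L1, mostly a repressor, had a log2 fold change of -0.20 (edgeR adjusted p = 0.342). LEF1 was too low to test, with 3, 2 and 5 counts in HK1-overexpressing libraries, against 7, 1 and 5 counts in control libraries.

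Feedback targets outside these roles were not called. SP5 had 2.63, 1.64 and 2.33 CPM in HK1-overexpressing libraries, against 2.32, 1.76 and 2.37 CPM in control libraries. The groups covered nearly the same range (log2 fold change 0.026, 95% interval -0.43 to 0.48, edgeR adjusted p = 0.960), and 22.7% of its exon bases are shared with ERICH2-DT, a neighbouring transcript. NKD1, an inhibitor that binds Dishevelled, was too low to test, with 8, 5 and 3 counts in HK1-overexpressing libraries, against 6, 2 and 5 counts in control libraries. NKD2 had 1 count in all. TNFRSF19, a receptor known as a beta-catenin target, was the highest of this role at 17.3 ± 1.30 CPM in HK1-overexpressing cells and 17.4 ± 0.605 CPM in control cells (SD, n = 3 each), with a log2 fold change of -0.0072 (edgeR adjusted p = 0.971). Of the 10 feedback targets, TCF factors and hub genes given here whatever their result, 8 were tested (CTNNB1, AXIN2, LGR5, RNF43, ZNRF3, NOTUM, SP5 and TCF7). None was called, where 3.87% of all tested genes were called higher and 4.15% lower, and their log2 fold changes lay on both sides of 0. NOTUM, AXIN2, SP5 and RNF43 lay between 0.617 and 3.38 CPM in every library, and such low levels limit what can be called.

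The control libraries varied more among themselves than the HK1-overexpressing ones. Over genes with at least 10 counts in a pair, a chi-square test of counts gave 1.51 to 2.12 per degree of freedom for pairs of HK1-overexpressing libraries and 4.54 to 9.94 for pairs of control libraries, where pure counting error gives about 1. Of the 31 tested Wnt pathway genes, control library 2 was the lowest of the 6 libraries for 15 (48.4%), against 26.9% of all tested genes. Control library 1 was the highest for 14 (45.2%), against 19.2% of all tested genes. CTNNB1, LGR4, LRP6, APC, FZD6 and KREMEN2 showed both. Control libraries had the larger SD for 20 of the 31 (64.5%), against 69.1% of all tested genes.

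Of 87 other genes of the Wnt machinery, 57 were tested, 0 rose (against 3.87% of all tested genes) and 6 fell (10.5%, against 4.15%), with a median log2 fold change of -0.079. This list was chosen with earlier results of these data known, so its shares only describe it. At an unadjusted p under 0.05, edgeR gave 4 higher (7.02%, against 10.7% of all tested genes) and 10 lower (17.5%, against 11.2%). DESeq2 called 1 higher, TNKS2 (log2 fold change 0.27, DESeq2 adjusted p = 0.0477), and limma-voom called none. GPC3, a cell surface proteoglycan abundant in hepatocellular carcinoma that can bind Wnt and Frizzled, had 380.4, 374 and 372 CPM in HK1-overexpressing libraries, against 497, 524 and 518 CPM in control libraries. All HK1-overexpressing libraries were below all control libraries by a gap far wider than the spread (log2 fold change -0.45, 95% interval -0.55 to -0.35, edgeR adjusted p = 2.34e-05). The other 5 fell by less. CXXC5, which inhibits Dishevelled, had a log2 fold change of -0.31 (edgeR adjusted p = 0.00274). CTBP1, a co-repressor, had -0.23 (0.0121), and TLE1, a Groucho co-repressor that binds TCF factors, -0.22 (0.0176). PYGO2, a co-activator of beta-catenin, had -0.23 (0.0283), and FRAT2, a GSK3-binding protein, -0.24 (0.0381). The falls thus include inhibitors and activators of the pathway. They numbered 2, GPC3 and CXXC5, whichever HK1-overexpressing library was left out, and TLE1 was also lost without control library 3 and FRAT2 without control library 1. Without control library 1, 4 genes rose, and without control library 2, 1 gene rose. In these 2 settings 1172 of all 17180 and 835 of all 17170 tested genes were called higher.

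Genes known as beta-catenin targets moved in both directions. Of 41, 27 were tested, 4 rose (14.8%, against 3.87% of all tested genes) and 6 fell (22.2%, against 4.15%), with a median log2 fold change of -0.028. This list, too, was chosen with earlier results of these data known, so its shares only describe it. CD44, a hyaluronan receptor, had 133, 133 and 127 CPM in HK1-overexpressing libraries, against 99.6, 92.1 and 97.2 CPM in control libraries, the largest rise of the list (log2 fold change 0.44, 95% interval 0.33 to 0.56, edgeR adjusted p = 0.000136). OAT, ornithine aminotransferase and a liver target, had 111, 112 and 111 CPM in HK1-overexpressing libraries, against 87.6, 79.3 and 84.1 CPM in control libraries (log2 fold change 0.41, 95% interval 0.29 to 0.53, edgeR adjusted p = 0.000308). FOSL1, an AP-1 subunit, and BMP4, a growth factor, rose with log2 fold changes of 0.40 and 0.27 (edgeR adjusted p = 0.000990 and 0.0430). The groups did not overlap for any of these 4 genes, which were picked by their call. Groups did not overlap for 16 of the 27 tested targets, against 27.8% of all tested genes. The call of BMP4 was lost without each library other than control library 2, and its edgeR adjusted p reached 0.190 without HK1-overexpressing library 2, while CD44, OAT and FOSL1 were called whichever library was left out.

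SOX9, a progenitor transcription factor, had 51.9, 48.9 and 50.1 CPM in HK1-overexpressing libraries, against 69.8, 60.4 and 61.9 CPM in control libraries, and it fell (log2 fold change -0.35, 95% interval -0.49 to -0.21, edgeR adjusted p = 0.00467). GLUL, glutamine synthetase and the standard liver target, had 426, 420.3 and 408 CPM in HK1-overexpressing libraries, against 481, 469 and 494 CPM in control libraries. Its fall was small but the groups were apart (log2 fold change -0.20, 95% interval -0.30 to -0.11, edgeR adjusted p = 0.0124). TBX3, another liver target and a transcription factor, had a log2 fold change of -0.38 (edgeR adjusted p = 0.00778). BIRC5 (survivin), ABCB1 (a drug exporter) and TERT (telomerase) had -0.30, -0.28 and -0.44 (edgeR adjusted p = 0.00642, 0.0128 and 0.0453). MYC had 130.4, 129 and 135 CPM in HK1-overexpressing libraries, against 152, 140.2 and 143 CPM in control libraries, and CCND1, cyclin D1, had 175, 177 and 179 CPM in HK1-overexpressing libraries, against 192, 191 and 190.0 CPM in control libraries. Both were lower in every HK1-overexpressing library without passing the threshold (log2 fold change -0.14 and -0.11, edgeR adjusted p = 0.112 and 0.163), and MYC was called without control library 2 (edgeR adjusted p = 0.0304). Of 9 liver targets, 4 were tested, and GLUL and TBX3 fell while OAT rose. RHBG, also tested, was not called (log2 fold change -0.53, 95% interval -1.02 to -0.044, edgeR adjusted p = 0.186). It was low, at 0.964 to 1.26 CPM in HK1-overexpressing libraries and 1.41 to 1.86 CPM in control libraries, which did not overlap. CYP2E1, CYP1A2, LECT2, SLC1A2 and SLC13A3 were too low to test. SOX9 was called lower whichever library was left out. The falls of the whole list numbered 2 without HK1-overexpressing library 1 and 1, SOX9, without HK1-overexpressing library 2. The calls of GLUL and ABCB1 were lost whichever HK1-overexpressing library was left out, that of GLUL also without control library 3, and that of TERT without control library 1 or 3 or HK1-overexpressing library 1 or 2. That of TBX3 was lost without HK1-overexpressing library 1 or 2 and that of BIRC5 without HK1-overexpressing library 2.

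**Figure D5:**
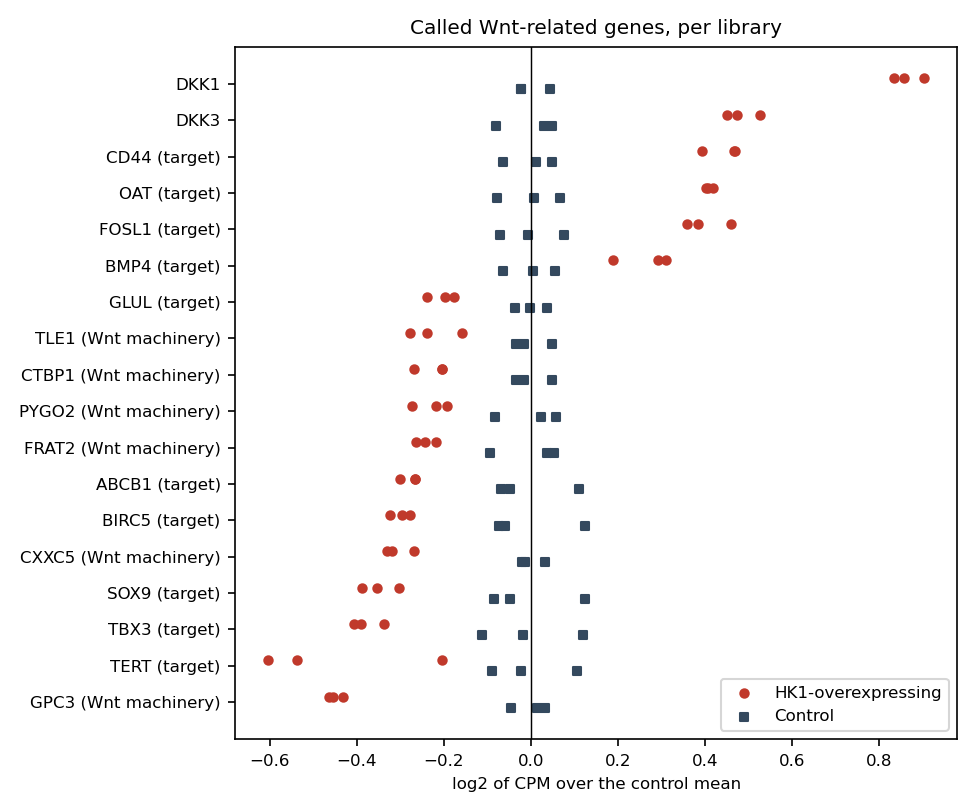
Log2 of the CPM in each library over the control mean for the 18 called genes among the Wnt pathway genes, the other Wnt machinery and the beta-catenin targets. DKK1 stands highest, at a log2 fold change of 0.87, and GPC3 has the lowest mean of the falls, at -0.45.

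Hepatocyte genes moved in the same libraries. Of 10 hepatocyte markers, all tested and listed with earlier results of these data known, 7 fell and 0 rose. Of all tested genes, 4.15% fell and 3.87% rose. The log2 fold changes of the markers ran from -0.70 for APOA1, an apolipoprotein, to 0.011 for HNF4A. Their summed level was 10467 to 10814 CPM in HK1-overexpressing libraries and 13503 to 14416 CPM in control libraries. Their part in the falls of GPC3, GLUL and TBX3, and in the rise of DKK1, was not tested. In bulk RNA, fewer cells that express a gene and less RNA of it per cell cannot be told apart. Of 5 fibroblast or stellate cell markers 2 were tested, with log2 fold changes of opposite sign. COL1A2 rose (log2 fold change 0.58), while COL3A1 was not called (log2 fold change -0.47, edgeR adjusted p = 0.218). The summed level of all 5, 18.8 to 21.7 CPM in HK1-overexpressing libraries and 14.4 to 15.9 CPM in control libraries, was mostly COL1A2. PDGFRB, untested, had 3, 7 and 9 counts in HK1-overexpressing libraries, against 11, 8 and 10 counts in control libraries. Of 4 blood cell markers only LYZ, lysozyme, was tested, and it fell (log2 fold change -0.53). The others were too low to test. PTPRC had 3, 2 and 2 counts in HK1-overexpressing libraries, against 1, 1 and 1 counts in control libraries. CD68 had 8, 2 and 4 counts in HK1-overexpressing libraries, against 2, 0 and 0 counts in control libraries. CD3E had at most 1 count in a library.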

How the data were processed

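Gene counts of 3 HK1-overexpressing and 3 control libraries were used. The authors deposited raw counts per gene, made by featureCounts 1.5.3 from read pairs in exons, summed per gene name of GENCODE release 47, per the file headers. No strand option and no option for fragments in several genes or places is set, per the file headers, so fragments in exons shared by 2 genes, or in copies on alternate sequences, may be missing. This touches 4 Wnt genes with over 20% of exon bases shared (DKK3, RNF43, AXIN2 and SP5) and 4 with alternate copies (TCF7L1, NKD2, LRP6 and WNT3). Trim Galore, Subread and hg38 are named per the submitters' processing notes. TRIZOL and a stranded mRNA kit were used, per the labels' protocols.

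The comparison used edgeR 4.0.16 (R 4.3.3) with TMM, filterByExpr and the robust quasi-likelihood test over all 16734 genes, Benjamini-Hochberg adjusted at 0.05. A gene is called when it passes. CPM divides counts by the library total of tested genes times its TMM factor, and CPM per kb divides that by the merged exon length. Orders and shares per kb therefore depend on that length. Log2 fold changes use edgeR's prior count. Standard errors, the unshrunken coefficient over the square root of F, and their intervals are approximate. All sample columns were matched by title. The test was checked on simulated data with the same spread in both groups, so the check did not cover the larger spread of these control libraries.

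The Wnt pathway genes and the lists were chosen with earlier results of these data known. The genes given per library are the called ones, 10 hub, feedback and TCF genes named whatever their result, and the highest of each role. Per-library values of FZD4, FZD5, LRP6, PORCN, WNT5A, WNT11, SFRP5, ALB and HNF4A were added after they were seen. Of the other lists, called genes plus GLUL, MYC and CCND1 are named, and TNKS2, WNT2B, WNT10B and RHBG were named after their values were seen. The alternatives tried were median-ratio size factors, unscaled library totals, dropping the low-count filter, a minimum mean CPM of 5, DESeq2 1.42.0, limma-voom (limma 3.58.1), no robust dispersion, a test against a fold of 1.5, a replicate block and leaving out each library. Promoter windows came from RefSeq, and their assembly, GRCh38.p14, was used only for these.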

Additional observations from a re-analysis of the deposited data

How the results depend on the processing

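Over all alternatives DKK1 and DKK3 kept their sign. The signs of FZD5 and APC, called only in some settings, were also the same in all. LRP6, called higher without control library 1, reached a log2 fold change of -0.11 in another alternative. Of 456 values of the tested genes, 451 kept their side of the threshold, 4 moved past it (FZD5 in 2 settings, LRP6 and APC) and 1, DKK3 against a fold of 1.5, fell back. The 456 values include that stricter test, in which a gene not called in the main test could not become called. DKK1 was called in all 15 alternatives, with log2 fold changes from 0.85 to 0.90 and a largest adjusted p of 0.00659. Tested against a fold of 1.5, 1 Wnt pathway gene rose, 0 other Wnt genes fell, and 0 beta-catenin targets rose and 0 fell. Of all 16734 tested genes, 32 rose and 16 fell in that test. With no filter on low counts, 1 Wnt pathway gene fell and 1 other Wnt gene rose, and with DESeq2 1 other Wnt gene rose. Over all genes, 685 of 40496 fell and 932 rose with no filter, and 478 of 16734 rose with DESeq2. Leaving out each library in turn gave 2 to 4 Wnt pathway genes higher and 0 to 1 lower, 0 to 4 other Wnt genes higher and 2 to 7 lower, and 3 to 5 beta-catenin targets higher and 1 to 8 lower. Calls over all tested genes varied in the same settings, from 286 to 1172 higher and from 250 to 1085 lower. GPC3, CXXC5, CD44, OAT, FOSL1 and SOX9 lost their call only against a fold of 1.5, while FRAT2, PYGO2, TLE1, CTBP1, GLUL, TBX3, BMP4, BIRC5, ABCB1 and TERT also lost it in other settings. The cause was not tested.

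Same-numbered libraries did not deviate together (correlations of -0.0401, 0.0590 and -0.216 over 9452 genes). Differently numbered ones had correlations from -0.0856 to 0.193. No pairing by number was seen, but 3 libraries per group are too few to exclude one. With a replicate block, 2 Wnt pathway genes rose and 0 fell, 4 other Wnt genes fell, 3 beta-catenin targets rose and 5 fell. Of all 16734 tested genes, 563 rose and 511 fell with that block. Over all genes, calls were 648 higher and 694 lower, 907 and 462 with library totals only, where the median log2 fold change of all genes was 0.045, and 1172 and 1085 without control replicate 1. Genes under about 1 CPM, such as NOTUM and KREMEN2, and the 12 untested ones are limited by depth.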
